A study of Macaca mulatta with 9 samples.

Results

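Cytosolic ribosomal proteins were measured here in small antral follicles (follicles with a newly formed fluid cavity) of young adult female rhesus macaques. The members were all probe sets whose array annotation gave a single gene symbol beginning with RPL or RPS and a digit, or RPLP0, RPLP1, RPLP2 or RPSA, without the RPS6K kinases. A probe set is a group of short array probes read together as 1 value. This rule took 69 of 52766 probe sets, standing for 41 of 14132 genes with a symbol. They comprised 22 genes of the large subunit including its stalk, 12 of the small subunit, 6 paralogs (RPL3L, RPL7L1, RPL22L1, RPL26L1, RPL36AL and RPS27L) and RPS19BP1, whose product binds RPS19 and is no subunit. Another 32 probe sets carried a ribosomal symbol together with other symbols, covering 22 genes of which 10 had no member. RPLP0 and RPSA were among those 10 and were not analysed here, nor was RPL11, which had no member.

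The ribosome joins a small subunit, which reads the messenger RNA, to a large subunit, which forms the peptide bond, and each protein subunit is needed in about equal number. Messenger RNAs of ribosomal proteins share a pyrimidine tract at their start through which the kinase mTOR governs their translation. Some free ribosomal proteins, RPL5 and RPL11 above all, bind MDM2 and so stabilise p53. In a growing follicle the dividing granulosa cells and the oocyte, which stores ribosomes for the embryo, both make ribosomes in quantity.

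Each of 3 groups had 3 arrays, labelled as biological replicates, from ovaries of the early follicular phase. Control females ate a standard diet, a second group ate a Western-style diet (WSD), and the last group ate that diet and had chronically elevated androgen from testosterone treatment (WSD+T). Every sample pooled the whole cell content of 3.7 ± 0.3 follicles per ovary, as the labels give it, so oocyte, granulosa cells and follicle wall were read together. In such samples fewer cells of a type and less RNA per cell cannot be told apart. WSD+T enters only on top of the diet, with no group given testosterone alone.

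Markers of the labelled tissue were measured on all arrays. The lowest and highest signals were 280 and 2605 for the inhibin subunit INHA, 81.6 and 383 for AMH and 143 and 517 for the oocyte coat gene ZP3. The summed signal of 8 granulosa markers was 9130 to 11854 in control, 4144 to 7894 in WSD and 5498 to 6030 in WSD+T. The sum of 11 myeloid markers was 2106 to 9861, 1400 to 23000.5 and 15289 to 16605. In WSD against control 1 of 8 granulosa markers was called higher and 2 lower, in WSD+T against control 2 lower, and none of 10 tested myeloid markers was called in any comparison. Of 7 tested theca and stroma markers 3 were lower in WSD against control: the stromal matrix gene LUM (-4.22), the androgen enzyme CYP17A1 (-1.67) and PTCH1 (-1.96). LUM was higher in WSD+T than in WSD (2.89, limma's adjusted p = 0.0205), and PTCH1 was lower in WSD+T than in control (-1.54). Over all tested probe sets, 4.78% were called higher and 9.68% lower in WSD against control. The shares were 0.542% and 1.43% in WSD+T against control, and 2.04% and 0.948% in WSD+T against WSD. The sum of 8 theca and stroma markers was 10477 to 11296 in control, 7453 to 12487 in WSD and 9876 to 11121 in WSD+T. Of 8 tested oocyte markers, ZP4 was called higher in WSD than in control (1.04, limma's adjusted p = 0.0310). FIGLA was called higher in WSD+T than in control (1.93, adjusted p = 0.0380). The oocyte sum was 592 to 1207 in control, 1061 to 1683 in WSD and 1458 to 1702 in WSD+T. The low end of the myeloid sum in WSD was replicate 3, whose array-wide median signal was also the lowest, 15.9 against 19.7 to 23.8 on the others. The ratio of 3' to 5' probe sets of GAPDH, a sign of RNA length, was 1.22 to 1.46 in control, 1.39 to 1.48 in WSD and 1.55, 1.69 and 1.49 in WSD+T. The same ratio of actin was 2.52 to 2.90 in control, 2.20 to 2.99 in WSD and 2.66, 2.97 and 2.49 in WSD+T. WSD+T replicates 1 and 3 were closer to each other than any other pair within a group, with a median absolute difference of 0.11 on the log2 scale against 0.18 to 0.45. Results were therefore also computed with this pair averaged.

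Most cytosolic ribosomal protein genes had no called change in any comparison, and the exceptions were few. Of 61 member probe sets that passed the filter on low values, 4 were called in WSD against control, none in WSD+T against control and 3 in WSD+T against WSD. A call is a limma adjusted p under 0.05 over all 26383 tested probe sets. RPS27L was higher in WSD on both of its probe sets, and RPS10 and 1 of the 2 tested RPL26 probe sets were lower. For WSD against control, the test of the diet, the 2 higher members stood against 4.78% of all tested probe sets called higher, and the 2 lower ones against 9.68% called lower. In WSD+T against control, which asks what diet and testosterone did together, none was called, where 0.542% of all probe sets were higher and 1.43% lower. There 3 of the 61 members had an unadjusted limma p under 0.05, beside 5066 of all 26383 tested probe sets. In WSD+T against WSD, which asks what testosterone added, 1 member was higher and 2 were lower, against 2.04% and 0.948%. With counts this small, the members' shares cannot be read as apart from these backgrounds. The comparisons share groups, so their values are not independent.

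The median log2 fold change of the 61 tested members was 0.05 in WSD against control, beside -0.08 over all tested probe sets. It was 0.04 beside -0.01 in WSD+T against control, and -0.01 beside 0.09 in WSD+T against WSD. The first median turned to -0.02 without control replicate 2, and was 0.18 with median centring or without control replicate 3. The second turned to -0.05 without control replicate 2 and to -0.01 without control replicate 1 or WSD+T replicate 2. The third turned to 0.01 under quantile normalization or with WSD+T replicates 1 and 3 averaged, and to 0.04 under cyclic loess. It turned to 0.02 without WSD+T replicate 1 or 3, and to just above 0 without WSD replicate 1. No direction for the family can therefore be given in any comparison. Centring each array on the ribosomal protein probe sets with a mean signal of at least 1000 gave -0.07 for the first and 0.10 for the third. That setting removes any shift those probe sets share, so these values cannot bear on a direction.

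**Figure D1:**
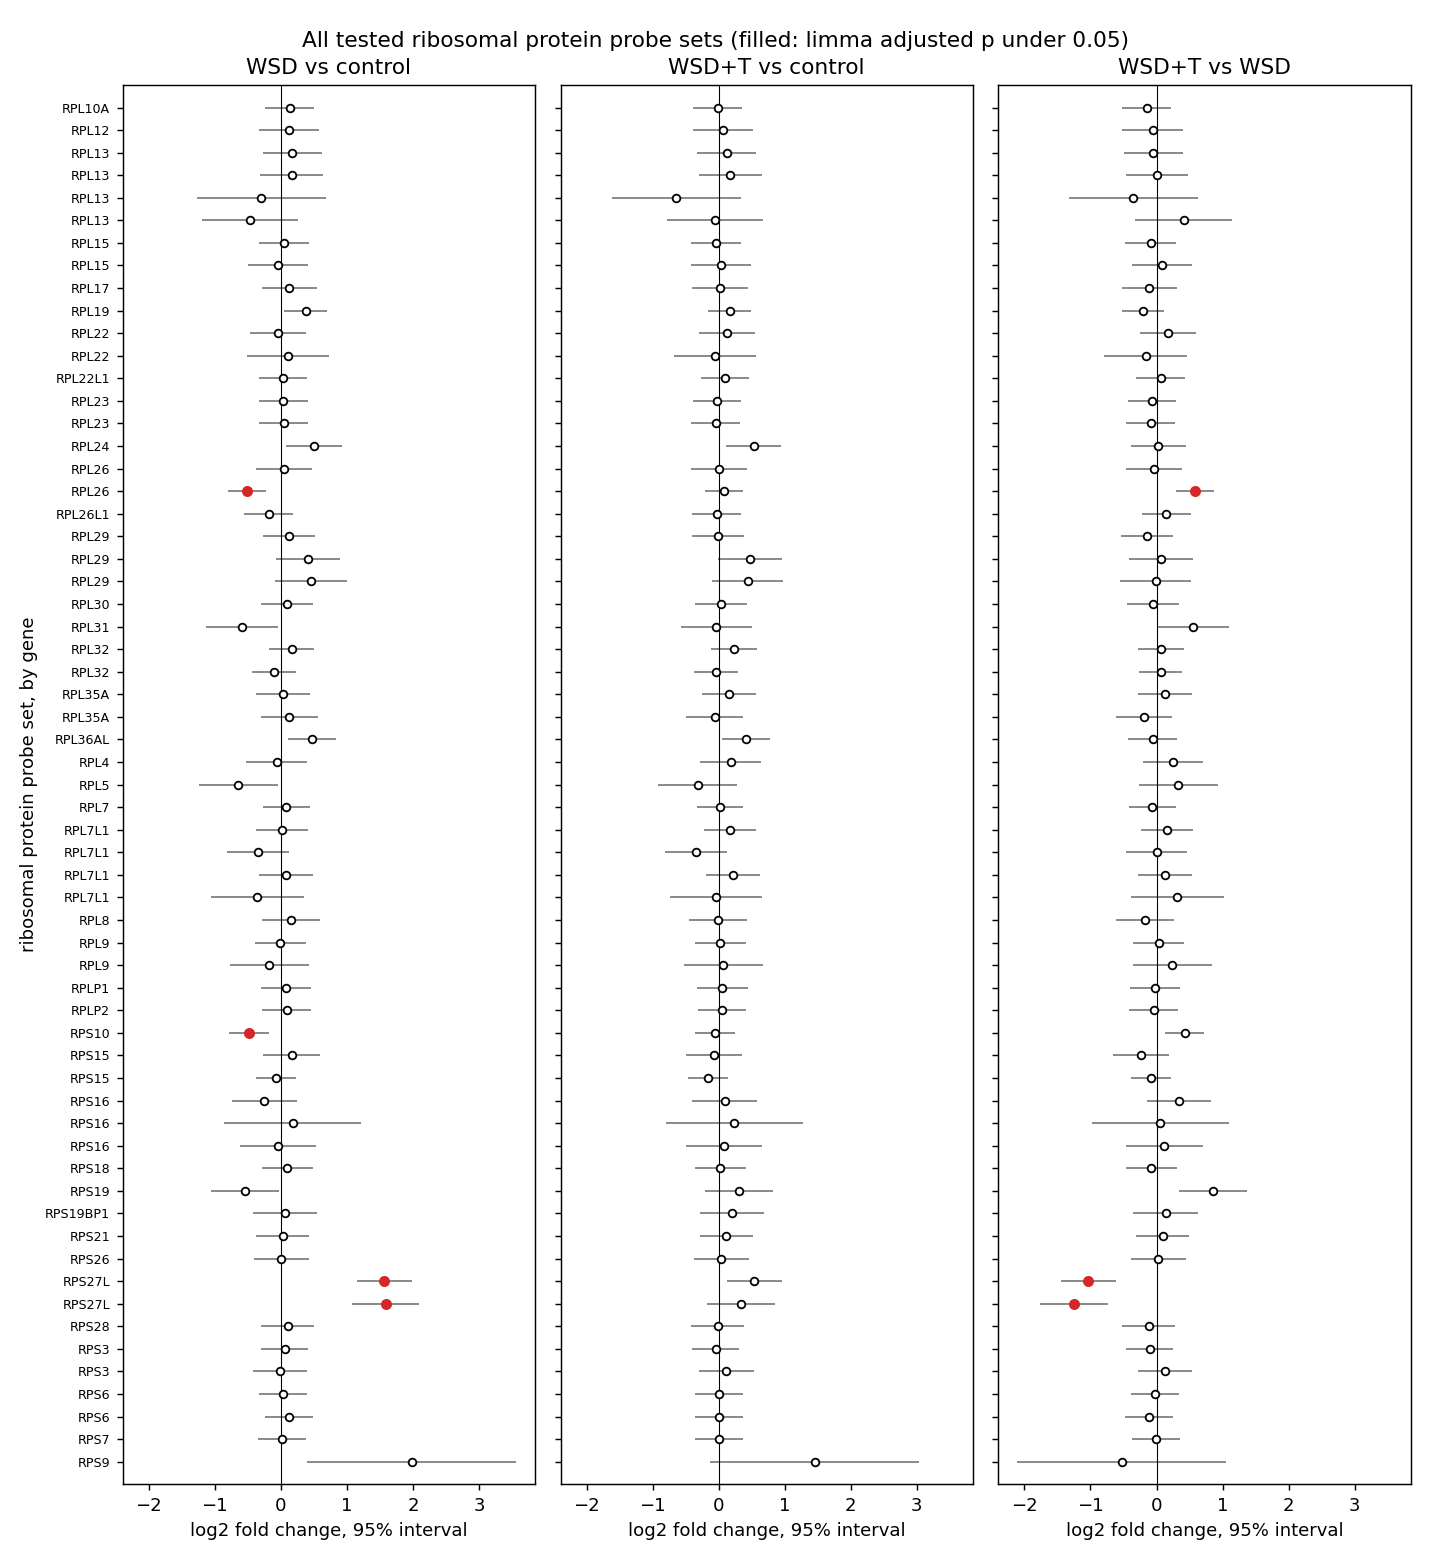
Log2 fold change (horizontal axis) of all 61 tested ribosomal protein probe sets, 1 row each and labelled by gene, in the 3 comparisons. Lines are 95% intervals from limma and filled red points have an adjusted p under 0.05: 4 in WSD against control, 0 in WSD+T against control and 3 in WSD+T against WSD.

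RPS27L, a paralog of the small subunit protein RPS27 that p53 is known to induce, had the highest fold change among the called members. Its first probe set, of suffix _at, read 75.5, 79.5 and 80.6 on control replicates 1 to 3. In WSD it read 238, 307 and 261, and in WSD+T 120, 66.7 and 135. All WSD arrays were above all others, and WSD+T lay on both sides of control. The mean rose from 78.5 ± 2.67 (SD, n = 3) to 269 ± 35.3 with the diet (log2 fold change 1.59, SE 0.22, limma's adjusted p = 0.00544). In WSD+T it was 107 ± 35.9, lower than in WSD (-1.25, SE 0.22, adjusted p = 0.0322).

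The second RPS27L probe set, of suffix _x_at, which marks probes that can also bind other sequences, has the same design number as the first and is no independent measurement. It read 80.7, 88.6 and 61.2 in control, 226, 299 and 251 in WSD and 126, 96.3 and 134 in WSD+T. Here all WSD+T arrays lay between the control and the WSD arrays. WSD was higher than control (1.57, SE 0.18, adjusted p = 0.00333), and WSD+T was lower than WSD (-1.03, adjusted p = 0.0315). Against control, WSD+T was not called (0.54, 95% interval 0.12 to 0.95, adjusted p = 0.168), nor was it on the first probe set (0.34, interval -0.17 to 0.85, adjusted p = 0.451).

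The rise with WSD was called in all 9 fits that left out 1 array on both RPS27L probe sets, with adjusted p from 0.00457 to 0.0219. With variance weights per group the first probe set had 0.0548. The fall from WSD to WSD+T was less firm. It was called in 3 and 4 of those 9 fits, with a highest adjusted p of 0.143 without WSD+T replicate 1 on both probe sets. It was lost on both without any of the WSD+T arrays, control replicate 1 or WSD replicate 1, on the first without control replicate 3, and on both with WSD+T replicates 1 and 3 averaged. The myeloid marker sum was 15950, 23000.5 and 1400 on WSD replicates 1 to 3. The 2 RPS27L probe sets read 238 and 226, 307 and 299, and 261 and 251 on these arrays. Granulosa marker sums were lower on all WSD and all WSD+T arrays than on any control array. The oocyte marker ZP4 read 728, 868 and 793 in WSD, above all other arrays, while the oocyte sum of WSD overlapped both other groups. The part of myeloid cells, granulosa cells or oocyte in the result was not tested.

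Among 6 tested genes, of 9 listed, of p53 and its known response, CDKN1A, the cell cycle inhibitor, was the only one called, in WSD against control (1.61, SE 0.28, adjusted p = 0.00977). It read 598, 368 and 722 in control, 2066, 1392 and 1680 in WSD and 905, 703 and 1121 in WSD+T, so its WSD arrays too were above all others. WSD+T against WSD was not called (-0.91, adjusted p = 0.110). MDM2, which marks p53 for degradation, had means of 67.7 ± 14.1, 106 ± 31.7 and 81.5 ± 19.2 in control, WSD and WSD+T (WSD against control 0.52, adjusted p = 0.181). The median of the 6 genes was 0.38 in WSD against control, 0.46 in WSD+T against control and -0.01 in WSD+T against WSD. GADD45A, like MDM2, had its highest mean in WSD, with 1588 ± 43.7, 1777 ± 32.0 and 1585 ± 65.1 in control, WSD and WSD+T. It was not called (WSD against control 0.16, limma's adjusted p = 0.368). ZMAT3 (275, 516 and 555) and SESN1 (276, 399 and 550) had their highest means in WSD+T. The part of p53 in the RPS27L result was not tested. In WSD against control 4.78% of all tested probe sets were called higher.

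**Figure D2:**
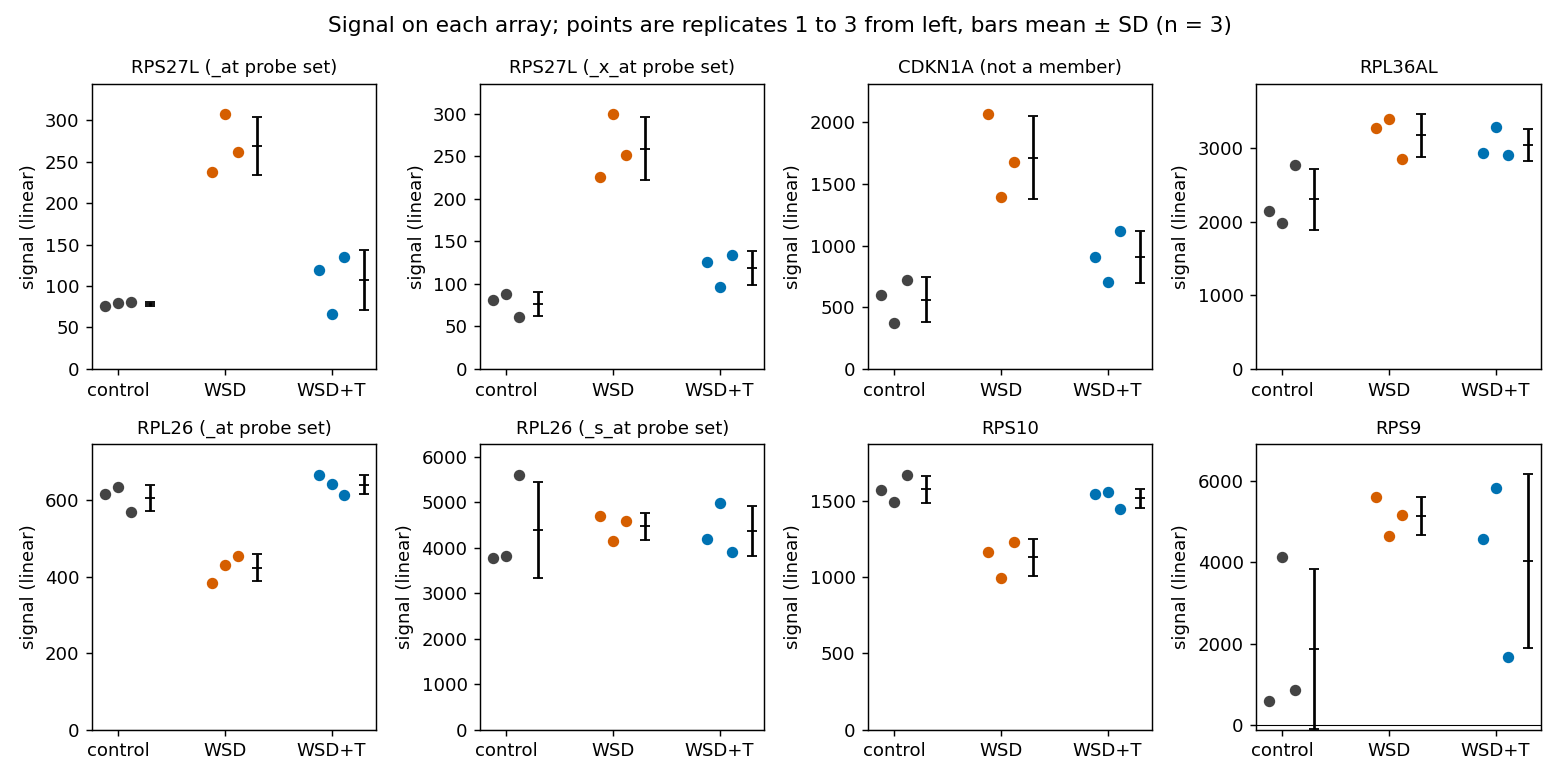
Linear signal (vertical axis) on each of 9 arrays by group for RPS27L (2 probe sets), CDKN1A, RPL36AL, RPL26 (2 probe sets), RPS10 and RPS9, with mean ± SD (n = 3) beside the points. RPS27L in WSD lies above all other arrays, RPS10 and the RPL26 _at probe set in WSD lie below them, and RPS9 is at or under 1675 on 3 arrays and at 4129 or above on the other 6.

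RPS10, a protein of the small subunit's head near the path of the messenger RNA, was lower in WSD. It read 1570.1, 1495 and 1671 in control, 1168, 995 and 1230 in WSD and 1546, 1558 and 1448 in WSD+T. The WSD arrays were below all others, and WSD+T overlapped control. Its mean of 1131 ± 122 in WSD stood below the 1579 ± 88.5 of control (-0.48, SE 0.13, adjusted p = 0.0446), while WSD+T at 1517 ± 60.2 was not called against WSD (0.42, adjusted p = 0.117). The call was just inside the threshold and stood in 1 of the 9 fits without an array, that without WSD replicate 3 (0.0273), with a highest of 0.114 without control replicate 3. Under median centring it was 0.184. Of 13 alternative settings the call stood in 6. Among those that ended it were fitting only WSD and control, array weights per group and averaging WSD+T replicates 1 and 3.

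RPL26, a large subunit protein at the mouth of the peptide exit tunnel that also binds p53 messenger RNA, gave different results on its 2 probe sets. The _at probe set read 615, 635 and 569 in control, 384, 431 and 454 in WSD and 665, 642 and 615 in WSD+T, with the WSD arrays below all others. Its mean fell from 606 ± 34.1 to 423 ± 35.5 (-0.51, SE 0.13, adjusted p = 0.0319), and was 641 ± 25.4 in WSD+T (0.58 against WSD, adjusted p = 0.0489). The _s_at probe set, whose suffix marks probes shared by several transcripts, had means of 4389 ± 1046, 4470.0 ± 292 and 4364 ± 551 in control, WSD and WSD+T, with overlapping groups and a log2 fold change of 0.05 (SE 0.19) in WSD. Without an array the first call stood in 2 of 9 fits, those without WSD replicate 2 or 3, with a highest adjusted p of 0.0949 without control replicate 2. The second also stood in 2 of 9 fits, with a highest of 0.197 without WSD+T replicate 1. Of 13 alternative settings the first call stood in 7 and the second in 5. Median centring ended both calls (0.169 for the first), and a pseudocount of 1 and cyclic loess ended the second. Both also ended with only the compared groups, array weights per group or averaged WSD+T replicates. The replicate number as a block and centring on the ribosomal protein probe sets ended both too. Some theca and stroma markers also differed between these groups. Of 7 tested, 3 were lower and 4 not called in WSD against control, and only LUM was called in WSD+T against WSD. The part of theca and stroma in the RPL26 and RPS10 results was not tested. Which transcripts the 2 probe sets read is not known here.

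The brightest member probe sets had their highest and lowest levels both within the control group. The limit for a bright probe set, a mean signal of at least 1000, was chosen after the values were seen. It served for description and for 1 alternative setting, which centred each array on the bright member probe sets. There were 39 such member probe sets, of 31 genes. Their median signal was 3672, 3399 and 5022 on control replicates 1 to 3, 4406, 4031 and 4547 in WSD and 3850, 4531 and 3645 in WSD+T. Control replicate 3 was thus the highest and control replicate 2 the lowest of all arrays, and both lie in 1 group. Control replicate 3 had the highest value of 26 of the 39 probe sets, and control replicate 2 the lowest of 21. The group means of this median were 4031 ± 869, 4328 ± 267 and 4008 ± 464, which overlap within their SDs.

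On the log2 scale, centred for each probe set on its mean over the arrays, the median of these 39 ran from -0.22 on control replicate 2 to 0.25 on control replicate 3. The same median over 4123 other probe sets of that brightness ran from -0.06 on WSD replicate 2 to 0.09 on WSD replicate 3, and was -0.03 and 0.08 on control replicates 2 and 3. The difference between the ribosomal and the other median was -0.19 on control replicate 2 and 0.17 on control replicate 3. It was 0.07, -0.02 and 0.03 in WSD and -0.04, 0.12 and -0.07 in WSD+T, so the 2 extremes were both control arrays. The 4 arrays with the highest ribosomal medians, control replicate 3, WSD replicates 1 and 3 and WSD+T replicate 2 (0.12 to 0.25), also had the 4 highest actin 3' to 5' ratios, 2.90 to 2.99. Control replicate 2, with the lowest median, had the next actin ratio, 2.83. The GAPDH ratio had another order. It was 1.69 on WSD+T replicate 2 and 1.46 to 1.48 on the others of those 4 arrays. It was 1.55 and 1.49 on WSD+T replicates 1 and 3, with medians of -0.06 and -0.11, and 1.26 on control replicate 2. The part of RNA quality in this pattern was not tested. The mean variance within a group of the 39 was 0.130 in control, 0.0490 in WSD and 0.0433 in WSD+T, where over all tested probe sets it was 0.152, 0.330 and 0.0411. Without RPS9 the variance of the other 38 was 0.0766, 0.0498 and 0.0207. These differences in variance were not tested.

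**Figure D3:**
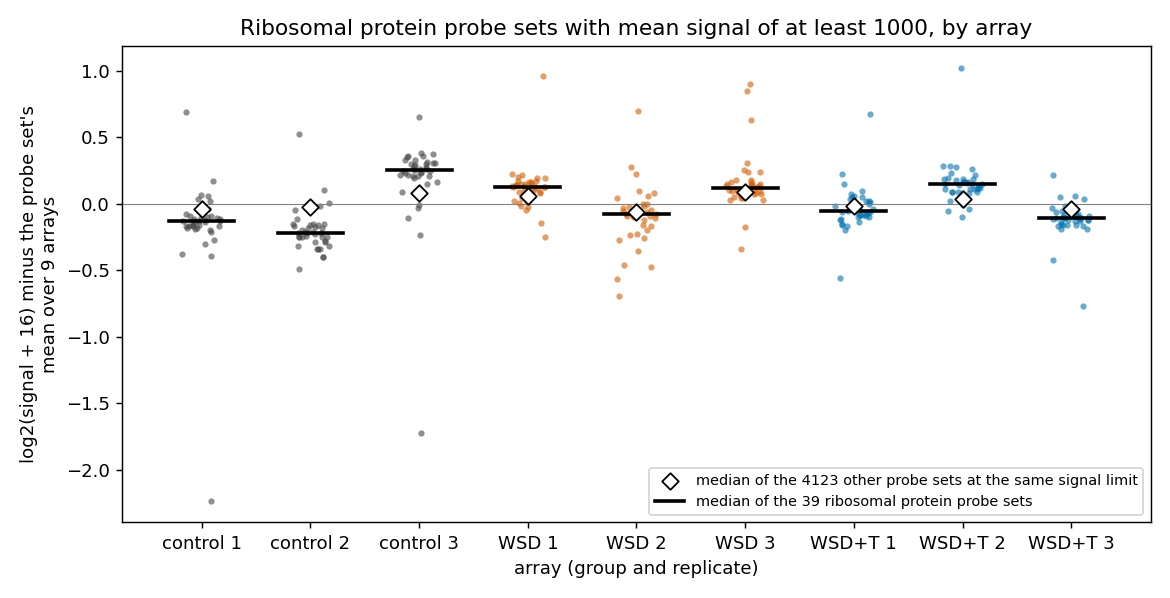
Log2(signal + 16) minus each probe set's mean over 9 arrays (vertical axis) for the 39 ribosomal protein probe sets with mean signal of at least 1000, by array. Thick bars are their medians, from -0.22 (control replicate 2) to 0.25 (control replicate 3), and diamonds the medians of 4123 other probe sets of that brightness. The lowest points on control replicates 1 and 3 are RPS9.

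Single bright members were read array by array. RPS6, the small subunit protein that S6 kinase phosphorylates below mTOR, read 5826, 5611 and 7225 in control, 6801, 5587 and 6690.4 in WSD and 6079, 6930 and 5711 in WSD+T. Its groups overlapped and its log2 fold change in WSD was 0.04 (SE 0.16), with 0.12 on its other probe set. RPLP1, an acidic stalk protein that recruits elongation factors, read 4357, 4012 and 5701 in control, 4720.2, 4609 and 5415 in WSD and 4548, 5352 and 4609.8 in WSD+T. RPLP2, its partner in the stalk, had means of 4224 ± 722, 4471 ± 387 and 4343 ± 405 in control, WSD and WSD+T. The log2 fold change of RPLP1 and RPLP2 in WSD was 0.08 and 0.09, and in WSD+T 0.06 and 0.05 against control.

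The absence of a call does not show that these genes were equal, but the intervals bound the size. In WSD against control, the 95% interval of the log2 fold change lay within a 1.5-fold change either way for 29 of the 39 bright members, and within 2-fold for 37. In WSD+T against control it lay within those bounds for 34 and 37, and in WSD+T against WSD for 31 and 37. The exceptions at 2-fold were in each comparison RPS9 and 1 of the RPL13 probe sets. The remaining 37 had a highest to lowest ratio over the 9 arrays between 1.29 and 2.30.

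RPS18, RPL32 and RPL19 are common reference genes. RPS18 had means of 4093 ± 856, 4324 ± 201 and 4112 ± 424 in control, WSD and WSD+T, with overlapping groups. RPL32 had 1521 ± 178, 1706 ± 222 and 1787 ± 130, with log2 fold changes of 0.16 and 0.23 against control in WSD and WSD+T and overlapping groups. RPL19 read 1951, 2486 and 2384 in control, 2943, 2718 and 3169 in WSD and 2624, 2493 and 2500.4 in WSD+T, so no group overlapped another, though WSD+T stood above the highest control array by little. Its log2 fold change in WSD was 0.38 (SE 0.14) and was not called (adjusted p = 0.108).

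Of the ribosomal proteins that bind MDM2, RPL23, RPS3 and RPS7 were bright and uncalled, with log2 fold changes in WSD of 0.04, 0.06 and 0.02 and in WSD+T of -0.03, -0.04 and 0.00 against control. RPL5 had 1 dim probe set, which read 50.1, 78.8 and 45.9 in control, 16.5, 49.6 and 31.7 in WSD and 41.6, 41.9 and 44.5 in WSD+T. Its WSD arrays overlapped control, and its log2 fold change of -0.64 (SE 0.26, adjusted p = 0.134) was called only without WSD replicate 2 (0.0430). RPS19, RPS26 and RPL35A are genes mutated in Diamond-Blackfan anaemia, a failure of red cell formation. The log2 fold change in WSD was 0.01 for RPS26 and 0.03 for the brightest RPL35A probe set. The only RPS19 probe set was dim, with means of 67.7 ± 23.7, 40.1 ± 7.76 and 85.2 ± 15.7, and was not called in WSD (-0.55, adjusted p = 0.139) or in WSD+T against WSD (0.85, adjusted p = 0.0783).

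Of the other paralogs, RPL36AL, a near copy of the RPL36A protein of the large subunit, came closest to the threshold. It read 2151, 1984 and 2778 in control, 3274, 3402 and 2851 in WSD and 2940.5, 3290 and 2905 in WSD+T, so both diet groups were above all control arrays. Its log2 fold change was 0.47 in WSD (SE 0.16, adjusted p = 0.0868) and 0.41 in WSD+T (adjusted p = 0.221) against control. It was called in WSD under median centring (0.0405) and with an intensity trend (0.0464). RPL24, a large subunit protein that reaches across to the small subunit, had a like order on its single, dimmer probe set, with 271, 336 and 455 in control, 513, 507 and 473 in WSD and 505, 543 and 475 in WSD+T. Its log2 fold change in WSD was 0.50 (adjusted p = 0.103, and 0.0385 without control replicate 3).

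RPL22L1, which can take the place of RPL22, had means of 3694 ± 317, 3806 ± 585 and 3952 ± 390 in control, WSD and WSD+T, with log2 fold changes of 0.03 and 0.10 against control. On its brightest probe set RPL22 itself had -0.04 and 0.13. RPL26L1 had -0.18 in WSD and -0.03 in WSD+T. The brightest RPL7L1 probe set had 0.02 and 0.18, its parent RPL7 had 0.08 and 0.02, and RPS19BP1 had 0.07 and 0.21. None of these was called. RPL3L, the striated muscle form of RPL3, had a mean signal of 17.3 and was the only member gene without a tested probe set.

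RPS9, a small subunit protein near the entry of the messenger RNA, had the widest range of all bright members. Its single probe set read 597, 4129 and 857 in control, 5597, 4649 and 5172 in WSD and 4571, 5841 and 1675 in WSD+T. It was low on control replicates 1 and 3 and on WSD+T replicate 3, and high on the other 6 arrays. The highest value was 9.79 times the lowest. WSD lay above all control arrays, but its log2 fold change of 1.98 (SE 0.70) was not called (adjusted p = 0.0916), and WSD+T overlapped both other groups (1.45 against control, adjusted p = 0.296). Without control replicate 2 it was 2.81 with an adjusted p of 0.0234. On control replicate 3, one of the low arrays, 26 of the 39 bright probe sets had their highest value. WSD+T replicates 1 and 3, the closest pair of arrays within a group, read 4571 and 1675 here. The second widest was an RPL13 probe set that read 3279.8, 1527 and 3188 in control, 1826, 1246 and 3783 in WSD and 1369, 2011 and 1506 in WSD+T. All its groups overlapped, and the other bright RPL13 probe sets had log2 fold changes of 0.17 and 0.17 in WSD.

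Probe sets of 1 gene often read differently, so the array's name for a probe set needs care. Of the 41 genes, 17 had several probe sets, up to 5 for RPL13 and RPS16, and 11 had members both above and below a mean of 1000. Brightness depends on the probes as well as on the transcript, and no level is compared between probe sets here. The 8 untested members had mean signals of 2.66 to 17.3, under the filter's 21.2, and came from RPL13, RPL22, RPL30, RPL35A, RPL3L, RPS16 and RPS28. Of 22 tested members under 1000, 2 were called higher and 1 lower in WSD against control, and of the 39 bright ones 0 and 1. Among the 4123 other probe sets of at least 1000, 203 were higher and 146 lower in that comparison, 8.46% in all. Of all 26383 tested probe sets 14.5% were called there. The members' counts are too small to be read as apart from these shares. The 2 dim probe sets of RPL29, a large subunit protein, had log2 fold changes of 0.41 and 0.45 in WSD without a call, and its bright one 0.13. On WSD replicate 2 the dim pair read 1161 and 474, the highest of all arrays for both.

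FAU, the precursor of a small subunit protein, and RACK1, a scaffold on the small subunit, belong to the ribosome but not to the symbol rule. FAU read 2866, 2595 and 3801 in control, 3431, 3003 and 3498 in WSD and 2892, 3301 and 2794 in WSD+T. RACK1 had means of 4313 ± 891, 4514 ± 367 and 4195 ± 412. Neither was called in any comparison. Of 12 tested genes, of 19 listed, among the elongation factors and other messengers with the pyrimidine start, none was called in any comparison, with medians of 0.07, 0.04 and 0.06 in the order WSD against control, WSD+T against control and WSD+T against WSD.

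Some genes that build ribosomes were called. Of 63 tested biogenesis genes, of 80 listed, 2 were higher and 8 lower in WSD (median -0.01), 1 was lower in WSD+T against control (median -0.09), and 1 was higher and 1 lower in WSD+T against WSD (median -0.04). Of all tested probe sets 4.78% were called higher and 9.68% lower in the first comparison. The shares were 0.542% and 1.43% in the second, and 2.04% and 0.948% in the third. The difference from the members was not tested. NAT10, which acetylates ribosomal RNA, fell from 277 ± 39.7 to 118 ± 18.1 in WSD (-1.13, SE 0.16, adjusted p = 0.00502) and was 210.2 ± 6.02 in WSD+T, higher than in WSD (0.76, adjusted p = 0.0440). DDX10, a helicase of small subunit assembly, fell from 1315 ± 184 to 543 ± 112 in WSD and 560.3 ± 152 in WSD+T (-1.26 and -1.23, adjusted p = 0.0105 and 0.0359). MDN1, which strips assembly factors from the large subunit, fell in WSD (-0.78, adjusted p = 0.0120), as did TAF1A, a factor of RNA polymerase I (-1.17, adjusted p = 0.0124). UTP3, of the early small subunit precursor, was higher in WSD at 518 ± 20.1 than in control at 322 ± 38.0 (0.67, adjusted p = 0.0237). In WSD+T it was 269 ± 39.3, lower than in WSD (-0.92, adjusted p = 0.0297). RIOK1, the other gene higher in WSD, rose from 47.1 ± 37.7 to 203 ± 78.7 (1.92, limma's adjusted p = 0.0261). It was 37.2 ± 13.4 in WSD+T, not called against WSD (-2.01, adjusted p = 0.0537).

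Of 17 tested regulators, of 20 listed, of ribosomal protein messengers, 3 were lower in WSD, where 9.68% of all tested probe sets were called lower. A count of 3 is too small to be read as apart from that share. TSC1, which restrains mTOR, fell (-0.97, adjusted p = 0.0116), as did MTOR itself (-0.70, adjusted p = 0.0307) and the cap-binding factor EIF4E (-0.79, adjusted p = 0.0344). EIF4E was also lower in WSD+T against control (-1.03, adjusted p = 0.0440), and TSC1 was higher in WSD+T than in WSD (1.01, adjusted p = 0.0315). MYC had means of 434 ± 88.5, 503 ± 204 and 310 ± 19.6 and was not called. Among 60 tested mitochondrial ribosomal proteins, of 62 listed, 1 was higher (MRPL58, 1.36, adjusted p = 0.00832) and 1 lower (MRPS24, -0.92, adjusted p = 0.0424) in WSD. None was called in WSD+T against control, and MRPL58 was lower in WSD+T than in WSD (-1.03, adjusted p = 0.0490). All tested probe sets had 4.78% higher and 9.68% lower in WSD against control. They had 0.542% and 1.43% in WSD+T against control, and 2.04% and 0.948% in WSD+T against WSD. The median of the mitochondrial proteins, with 1 probe set per gene, was -0.19 in WSD and -0.12 in WSD+T against control. It was 0.07 and 0.04 for the cytosolic members taken the same way, and -0.08 and -0.01 over all tested probe sets. These differences were not tested, and the cytosolic medians changed sign without single arrays.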

How the data were processed

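The authors deposited linear signal intensity per probe set, made with MAS5 per the submitters' processing notes, from 1-colour arrays of NuGEN-amplified RNA per the labels. On every array the mean without the outer 2% of probe sets was 200.01, a scaling by the authors. Build, version and detection calls are not given in the sources used here. After leaving out 99 control probe sets, log2(signal + 16) was tested where the mean over 9 arrays reached the median probe set (5.22, a signal of 21.2). limma 3.58.1 (R 4.3.3) fitted all probe sets and 9 arrays with a mean per group, and p-values were adjusted by Benjamini-Hochberg. The added 16 understates fold changes of dim genes, and intervals come from this fit. Replicates are labelled biological. All 69 members' Entrez IDs had the same symbol in a RefSeq table. Members, lists and alternatives were chosen with earlier results of these data known. Named genes were up to 12 called members per direction and comparison, a fixed list of stalk, MDM2-binding, reference, Diamond-Blackfan and paralog genes with the brightest tested probe set, and up to 4 genes per pathway list. RPS9, RPL24, RPL13, RPL29 and RPL31 were added after their values were seen. The code was tested on simulated data, and figures used matplotlib 3.10.9 in Python 3.11.15.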

Additional observations from a re-analysis of the deposited data

How the results depend on the processing

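For the count of called members, 15 settings were tried besides leaving out each array, 1 of them (centring on the ribosomal protein probe sets) chosen after seeing the data. That setting used the bright member probe sets and removes any shift they share. The 0 calls in WSD+T against control stayed at 0 under all 15 and in all 9 fits without an array, while calls over all probe sets ran from 0 to 3267. They ran from 859 to 6628 in WSD against control and from 0 to 1548 in WSD+T against WSD. In WSD against control the 4 calls became 2 with a filter at the 75th percentile, with only the compared groups, with WSD+T replicates 1 and 3 averaged, with 1 probe set per gene, without paralogs and with centring on the ribosomal protein probe sets, and 1 with array weights per group. Median centring gave 3 higher and 0 lower, so both lower calls (RPS10 and RPL26) were lost there. They were also lost with only the compared groups, array weights per group and averaged WSD+T replicates. The replicate number as a block and centring on the ribosomal protein probe sets ended them too. In WSD+T against WSD the 3 calls became 1 with the stricter filter, with 1 probe set per gene or without paralogs, and 0 with only the compared groups, array weights, averaged WSD+T replicates or centring on the ribosomal protein probe sets. The cause was not tested, except that the stricter filter and the member rules test fewer probe sets. Without 1 array the count ran from 2 to 6 in WSD against control and from 0 to 3 in WSD+T against WSD. The 6 came without WSD replicate 3, where 4 members were lower. The residuals of same-numbered arrays had correlations from -0.30 to 0.19, and those of differently numbered arrays from -0.45 to 0.43. With 3 arrays per group these values cannot show whether same-numbered samples were paired or shared a batch. With the replicate number as a block, 2, 0 and 0 members were called in the 3 comparisons. For the named genes, no called fold change turned its direction under any setting. The number of arrays and the signal over background limit what dim probe sets such as RPS19 and RPL5 can show.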

Other observations

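RPL31, a large subunit protein read by 1 dim probe set, had 337, 288.6 and 350 in control, 214, 149 and 288.5 in WSD and 297, 393 and 270 in WSD+T. All WSD arrays were below the control arrays, by little on replicate 3, and WSD+T overlapped both. The change in WSD was -0.59 with a limma adjusted p of 0.130.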
